A study of Mus musculus with 4 samples.

Results

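The genes described are 7 adhesion G protein-coupled receptors (adhesion GPCRs) of the G and E groups, Adgrg5, Adgrg1, Adgrg3, Adgrg6, Adgre1, Adgre4 and Adgre5, out of 49993 genes with a count. They were selected on their family and on their read levels in the AD and AD/KO libraries, so that those levels are given as a description and are not tested. Bulk RNA-seq was made from microglia, sorted from mouse brain on CD11b with magnetic beads, at 10 months of age. Every mouse carried APP/PS1, transgenes that cause amyloid to build up in the brain. The AD group (2 libraries) was asrij+/+ and the AD/KO group (2 libraries) was asrij-/-, a constitutive deletion that affects all cells and not microglia alone. The promoters of the transgenes, the sex of the mice and the number of mice behind a library are not given in the sources used here, so that the spread between 2 libraries may be technical in part.

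Adhesion GPCRs carry a long extracellular part joined to a membrane-spanning part by a domain at which many of them cut themselves. The stretch exposed at the cut acts as a tethered agonist, and ligands in the matrix or on neighbouring cells bind the extracellular part. The E group, which includes F4/80 (Adgre1) and CD97 (Adgre5), is typical of myeloid cells and leukocytes. In the G group, Adgrg1 (GPR56) is a marker of resident microglia and is also used by neural precursors, while Adgrg3 (GPR97) is typical of granulocytes and Adgrg6 (GPR126) is known for its role in myelination by Schwann cells.

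The libraries held from 13102622 to 19810076 counts. Asrij is the gene Ociad1, which stood at 50.2 and 63.4 CPM (read counts scaled to a common library size) in AD and at 38.9 and 32.1 CPM in AD/KO. Its transcript was therefore not lost, and AD and AD/KO stand below for the libraries as labelled, with every direction a difference between labels. Itgam, which encodes CD11b, stood at 1313, 848, 1012 and 374 CPM in AD (replicates 1 and 2) and then AD/KO (replicates 1 and 2), the order used for all values below. The 12 homeostatic microglia genes (P2ry12, Tmem119 and others) had a geometric mean of 1092, 782, 1068 and 302 CPM, so that AD/KO replicate 2 had the lowest level of the sorted cell type. The neuron markers summed to 313, 1111, 800 and 2559 CPM and the astrocyte markers to 1831, 4299, 4461 and 11436 CPM, highest in that same library. The neutrophil markers summed to 1404, 5753, 1241 and 874 CPM, highest in AD replicate 2, which was also the library with reads of Xist, the RNA that coats the silenced X chromosome in females (1391 reads, against 6, 15 and 3 in the others).

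**Figure D1:**
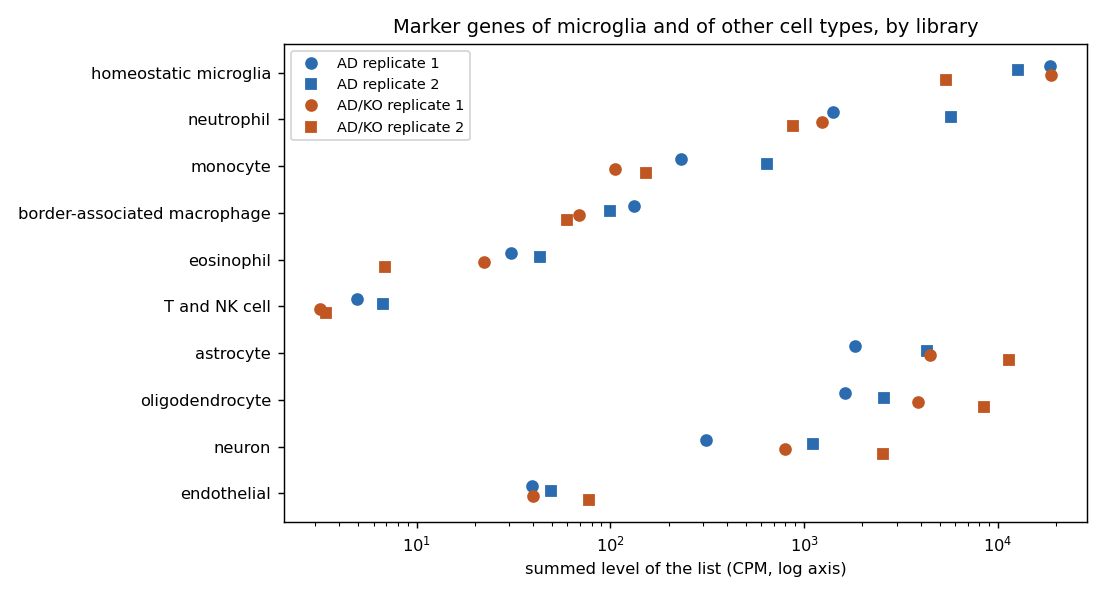
Summed level (CPM, log axis) of marker genes of microglia and of 9 other cell types in each library; circles are replicate 1, squares replicate 2, blue AD and orange AD/KO. AD/KO replicate 2 is lowest for microglia and highest for astrocytes, oligodendrocytes and neurons, and AD replicate 2 is highest for neutrophils (5753 CPM) and monocytes (642 CPM).

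Across all genes, 0 of 21439 tested (0%) had an adjusted p under 0.05 between AD/KO and AD by the quasi-likelihood F-test of edgeR, Benjamini-Hochberg adjusted (smallest adjusted p = 0.680). There were 1072 genes with an unadjusted p under 0.05, and DESeq2 called 86 genes. All 7 receptors passed the filter on low counts, Adgrg5 through its AD libraries alone. In 3 of the 7, Adgrg5, Adgre4 and Adgre5, each AD/KO library was lower than either AD library, an arrangement found in 21.7% of all genes tested. In none of the 7 did both AD/KO libraries lie above both AD libraries, as 20.3% of all genes tested did. Since the receptors were chosen on this comparison, nothing is read from these counts.

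**Figure D2:**
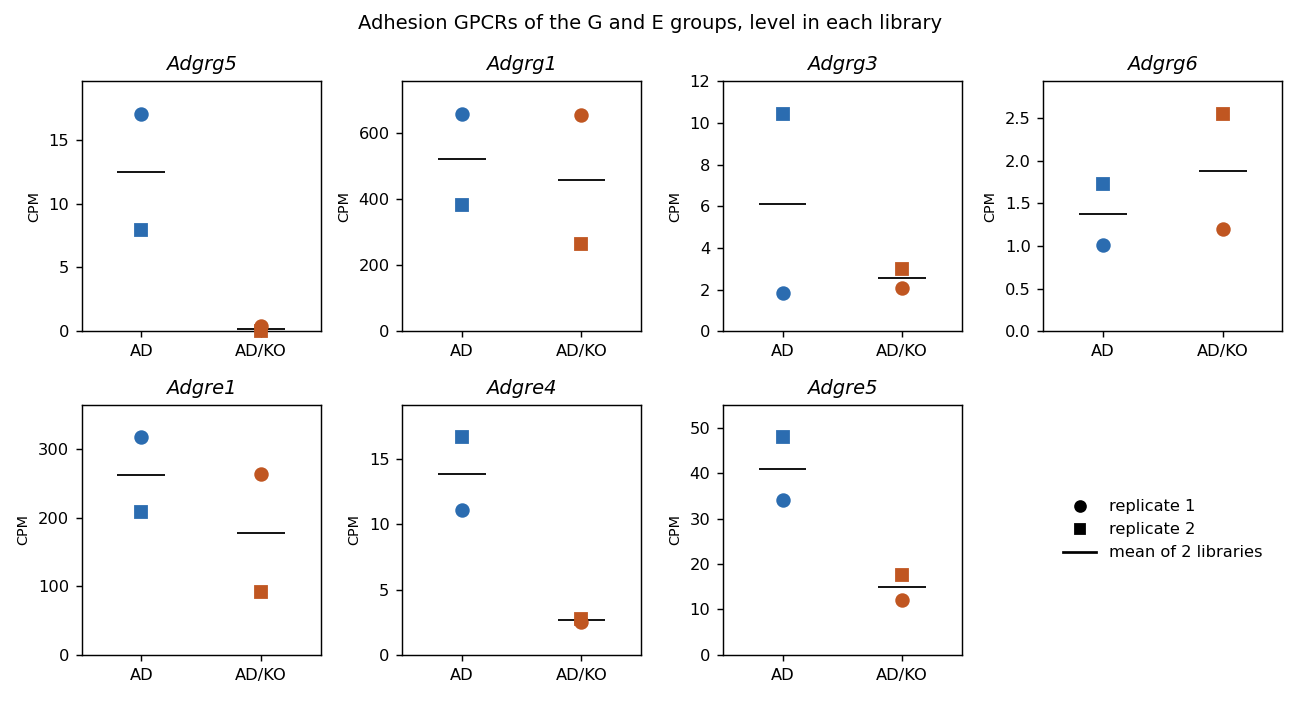
Level (CPM, linear axes from 0) of each of the 7 receptor genes in the 4 libraries; circles are replicate 1, squares replicate 2, and bars the mean of 2 libraries. The AD and AD/KO points are apart for Adgrg5, Adgre4 and Adgre5 and overlap for Adgrg1, Adgrg3, Adgrg6 and Adgre1.

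Adgrg5 (gene ID 382045, chromosome 8, 94921811 to 94943293, GRCm38.p6, plus strand) encodes a receptor that couples to the stimulatory G protein and raises cyclic AMP. AD libraries held 235 and 129 of its reads and AD/KO libraries 8 and 0, or 17.1, 7.93, 0.417 and 0 CPM. The transcript was thus present in both AD libraries and near or at the detection limit in both AD/KO libraries. The AD/KO libraries had more counts in total, but AD/KO replicate 2 had the lowest microglial level. The 8 reads of AD/KO replicate 1 have an exact Poisson interval (95%) from 0.180 to 0.822 CPM, and the 0 reads of AD/KO replicate 2 allow up to 0.163 CPM at a floor of 3 reads. Such intervals cover counting error only.

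Adgrg5 had a mean of 12.5 ± 6.45 CPM (SD, n = 2) over the AD libraries, against 0.209 ± 0.295 CPM (SD, n = 2) for AD/KO. With the library at 0 taken at the floor of 3 reads, the AD mean was 43.1-fold higher. That value leaves out the counting error of the other libraries and is not a lower bound. The fitted log2 fold change was −5.84 (SE 1.28), and 4 of the 13769 genes with a mean of at least 5 CPM had one as low or lower. The other 3 were Xist, Gm32657 and Gh, named here for that value alone. Xist and Gm32657 were high in 1 AD library only and overlapped between the groups, whereas Adgrg5 and Gh (growth hormone) were lower in both AD/KO libraries. Adgrg5 overlaps no other gene in RefSeq or GENCODE M21, and none of its transcripts matched another gene at 95% identity over 100 bases or more.

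Because AD/KO replicate 2 had the lowest microglial level, each receptor was also set against the geometric mean of the 12 homeostatic genes in its own library. In bulk RNA, fewer cells of a type and less RNA per cell cannot be told apart. On this scale Adgrg5 stood at 1.56% and 1.01% in AD and at 0.0391% and 0% in AD/KO. The ratio of the AD to the AD/KO mean was 66.0, against 59.9 in CPM. Both ratios take the 0 of AD/KO replicate 2 as exactly 0, unlike the 43.1-fold in CPM given above. A floor of 3 reads weighs more on this scale, since that library had the lowest microglial level. The 2 ratios therefore do not show whether the gap is wider or narrower relative to microglia. Set against its neighbour Adgrg1 in the same library, Adgrg5 was at 2.59% and 2.07% in AD and at 0.0637% and 0% in AD/KO. Since Adgrg5 is also known from some leukocytes, the lists of those cells are given beside it. Of 13 T and NK cell markers, 2 passed the filter on low counts, and the list summed to 4.94 and 6.70 CPM in AD and 3.18 and 3.42 CPM in AD/KO, with Trbc2 at 0 in all 4 libraries. All 4 eosinophil markers passed, with a sum of 30.7 and 43.5 CPM in AD and 22.2 and 6.89 CPM in AD/KO, and none was at 0. Their part in the level of Adgrg5 was not tested.

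**Figure D3:**
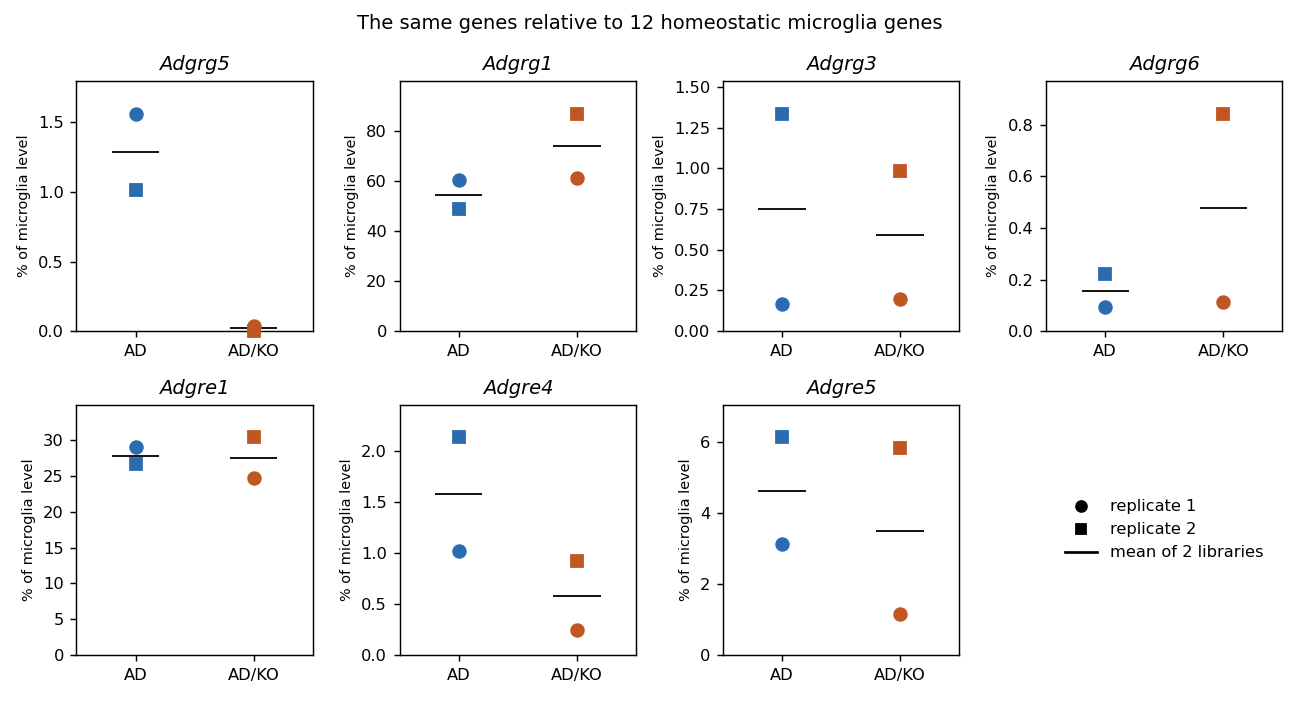
Level of each receptor as a percentage of the geometric mean of 12 homeostatic microglia genes in the same library (linear axes from 0); circles are replicate 1, squares replicate 2, and bars the mean of 2 libraries. Adgrg5 stays apart between the groups, Adgre1 lies between 24.7% and 30.4% in every library, and Adgre5 overlaps on this scale.

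Adgrg5 forms a cluster on chromosome 8 with Adgrg1 and Adgrg3, all on the plus strand. Adgrg1 begins 31.5 kb beyond the end of Adgrg5, and Adgrg3 begins 2.90 kb beyond the end of Adgrg1. The promoter window of Adgrg5, the receptor with the widest gap between groups, is shown with that of Adgre4, the next widest, as the 250 bases before a start site of each in the RefSeq table (GRCm38.p6, both plus strand). Capitals mark GAGGAA, the box bound by PU.1, a transcription factor of the microglial lineage, searched on both strands.
Adgrg5, chr8:94923444-94923693: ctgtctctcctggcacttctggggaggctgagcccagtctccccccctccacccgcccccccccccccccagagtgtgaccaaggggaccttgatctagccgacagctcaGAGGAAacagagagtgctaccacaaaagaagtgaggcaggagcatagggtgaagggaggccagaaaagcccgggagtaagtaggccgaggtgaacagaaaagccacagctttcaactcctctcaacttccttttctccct
Adgre4, chr17:55749734-55749983: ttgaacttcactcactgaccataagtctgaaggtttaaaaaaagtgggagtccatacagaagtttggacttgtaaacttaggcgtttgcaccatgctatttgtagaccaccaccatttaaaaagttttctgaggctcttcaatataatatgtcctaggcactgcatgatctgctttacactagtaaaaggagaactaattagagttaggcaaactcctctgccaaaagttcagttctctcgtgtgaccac

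The box begins 140 bases before that start site of Adgrg5, and these letters are not in the window of Adgre4. The window of Adgrg5 lies inside the RefSeq span of the gene, which begins at 94921811. It ends just before the start in GENCODE M21, at 94923694. The bases before the outer RefSeq start are not shown. Among the 6 windows of the 5 receptors that the RefSeq table holds, 2 had the box, the second being that of Adgrg3, where it lies on the minus strand. It was found in 23.3% of all 32851 windows of that length. A match is a description of the letters and not of binding.

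The genes around Adgrg5 were examined after its values had been seen. Of 24 genes within 250 kb, 12 had a mean of at least 5 CPM. Over all genes tested, both AD/KO libraries lay above both AD libraries in 20.3% and below in 21.7%. Among the 12 they lay above in 5 and below in 1. That gene was Ccdc102a, which lies next to Adgrg5 (chromosome 8, 94902869 to 94918098), with 16.8, 8.30, 6.67 and 5.26 CPM and a log2 fold change of −1.07 (SE 0.50). At the other end was Cx3cl1, a chemokine gene used by neurons, with 6.68, 16.0, 22.5 and 78.7 CPM and a log2 fold change of 2.16 (SE 0.77). None of the 12 lay as low as Adgrg5.

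**Figure D4:**
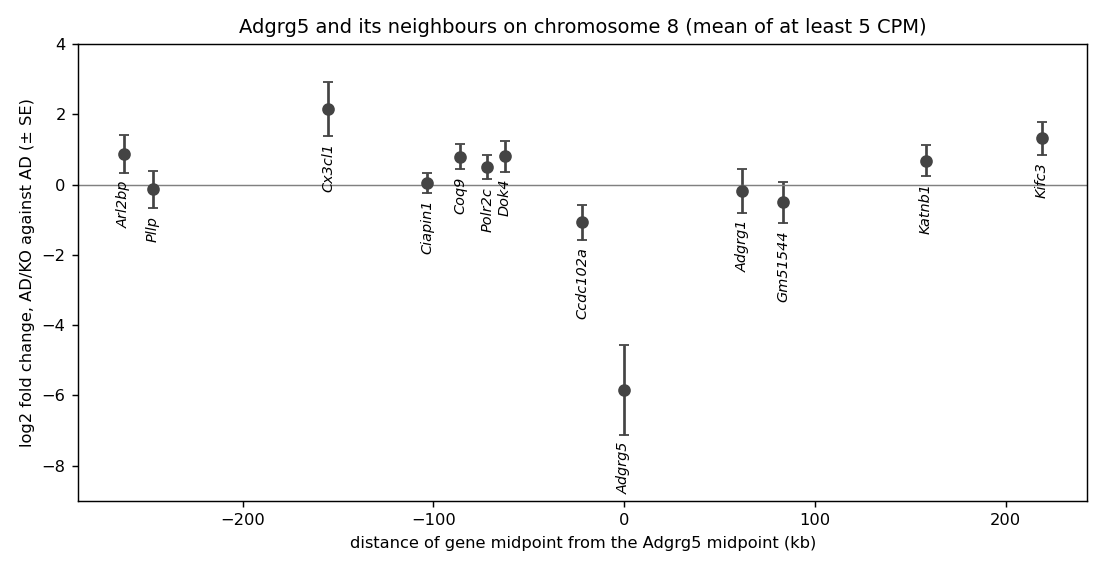
Fitted log2 fold change (AD/KO against AD, ± SE) of Adgrg5 and of the 12 genes within 250 kb with a mean of at least 5 CPM, by distance of the gene midpoint from that of Adgrg5. The neighbours lie between −1.07 (Ccdc102a) and 2.16 (Cx3cl1), and Adgrg5 lies at −5.84.

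Adgrg1 (gene ID 14766, chromosome 8, 94974756 to 95014208) had the most reads of the 7, from 56.6% to 69.9% of all their reads in a library. Its reads were 9074 and 6224 in AD and 12561 and 4846 in AD/KO, or 659, 383, 655 and 263 CPM. The first replicate of each group was high and the second low, and the groups overlapped. The AD mean was 521 ± 195 CPM (SD, n = 2), against 459 ± 277 CPM (SD, n = 2) for AD/KO, with a log2 fold change of −0.18 (SE 0.61). The direction turned to 0.44 with scaling to the microglia list, to 0.26 without AD replicate 1 and to 0.34 without AD/KO replicate 2. Against the microglia list Adgrg1 stood at 60.3%, 48.9%, 61.3% and 87.0%, with both AD/KO libraries above both AD libraries on that scale, by a narrow margin in AD/KO replicate 1. Adgrg1 is also used by precursors of oligodendrocytes, whose 4 markers summed to 49.7 and 127 CPM in AD and to 86.9 and 201 CPM in AD/KO, with none at 0. Their part was not tested. In RefSeq the long non-coding gene Gm51544, at 2.66 to 7.33 CPM, lies across the end of Adgrg1 and the start of Adgrg3.

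Adgrg3 (gene ID 54672, chromosome 8, 95017113 to 95045250), the granulocyte receptor, had 25 and 170 reads in AD and 40 and 55 reads in AD/KO, or 1.81, 10.4, 2.09 and 2.98 CPM. It was high in AD replicate 2 alone, and the other AD library was the lowest of the 4. The log2 fold change of −1.28 (SE 0.91) turned to 0.54 without AD replicate 2. Of all genes tested, 52.8% were lower in AD/KO by their fitted fold change and 21.7% in both libraries. The 12 neutrophil markers were all lower, 1 of them in both libraries, and none was at 0. Their sum was highest in AD replicate 2, at 5753 CPM against 874 to 1404 CPM in the other 3. Set against that sum, Adgrg3 was at 0.129%, 0.182%, 0.168% and 0.342%, with AD/KO replicate 2 highest. Csf3r, a cytokine receptor in the neutrophil list, stood at 996, 629, 694 and 256 CPM, lowest like the microglia level in AD/KO replicate 2, and gave 71.0% of the sum in AD replicate 1 and 10.9% in AD replicate 2. Without it, a choice made after seeing the data, the shares were 0.445%, 0.204%, 0.381% and 0.483%, with AD replicate 2 lowest, so that the order of the libraries depends on that gene. The part of Gm51544 reads in Adgrg3 was not tested.

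Adgrg6 (gene ID 215798, chromosome 10, 14402583 to 14545723) was the rarest of the 7, with 14 and 28 reads in AD and 23 and 47 reads in AD/KO. Its levels of 1.02, 1.72, 1.20 and 2.55 CPM are close to their counting error. The groups overlapped, AD/KO replicate 1 lying below AD replicate 2. The exact Poisson interval (95%) of AD/KO replicate 2 (1.87 to 3.39 CPM) overlapped that of AD replicate 2 (1.14 to 2.49 CPM). It lay just above those of AD replicate 1 (0.556 to 1.70 CPM) and AD/KO replicate 1 (0.760 to 1.80 CPM). The log2 fold change was 0.45 (SE 0.70), −0.18 without AD/KO replicate 2 and 1.58 with scaling to the microglia list. In GENCODE M21 the antisense gene Gm46212 shares 3.61% of the exonic length of Adgrg6. It has no count here, and its part in the reads was not tested. The endothelial markers, 7 genes of a cell type that uses Adgrg6, summed to 39.3 and 49.3 CPM in AD and to 40.0 and 77.4 CPM in AD/KO, also highest in AD/KO replicate 2. Their part was not tested.

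Adgre1 (gene ID 13733, chromosome 17, 57358581 to 57483529) encodes F4/80, the classic surface marker of mouse macrophages and microglia. It had 4369 and 3396 reads in AD and 5058 and 1696 reads in AD/KO, or 317, 209, 264 and 92.0 CPM. The groups overlapped, AD/KO replicate 2 being the lowest library, and the means were 263 ± 76.6 CPM (SD, n = 2) for AD and 178 ± 121 CPM (SD, n = 2) for AD/KO. The log2 fold change of −0.56 (SE 0.60) became −0.016 with scaling to the microglia list, and without AD/KO replicate 2 it turned to 0.015. Against the microglia list Adgre1 lay at 29.0%, 26.7%, 24.7% and 30.4%, with AD/KO replicate 1 lowest and AD/KO replicate 2 highest. Adgrg1 exceeded Adgre1 by 2.08, 1.83, 2.48 and 2.86 times in CPM, the AD/KO libraries having the 2 higher ratios. Both receptors together held from 87.5% to 98.04% of the reads of the 7. In RefSeq the pseudogenes Gm18069 and Gm20243 lie within Adgre1, at up to 6.68 and 3.41 CPM.

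Adgre4 (gene ID 52614, chromosome 17, 55749984 to 55853662) encodes an E-group receptor of mouse macrophages, also typical of patrolling monocytes. It had 153 and 271 reads in AD and 49 and 51 reads in AD/KO, or 11.1, 16.7, 2.55 and 2.77 CPM. Both AD/KO libraries were well below both AD libraries and close to each other. AD averaged 13.9 ± 3.93 CPM (SD, n = 2) and AD/KO 2.66 ± 0.151 CPM (SD, n = 2), 5.22-fold lower, with a log2 fold change of −2.38 (SE 0.44). Across 10 alternatives it ran from −2.66 to −1.46, the latter with scaling to the microglia list. Against the microglia list Adgre4 stood at 1.02%, 2.13%, 0.239% and 0.915%, so that AD/KO replicate 2 lay just under AD replicate 1.

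Markers of monocytes lay in the same direction as Adgre4. All 10 were lower in AD/KO by their fitted fold change and 8 in both AD/KO libraries, with none at 0. Their sum was 231 and 642 CPM in AD and 106 and 152 CPM in AD/KO. As a share of that sum Adgre4 was at 4.81% and 2.60% in AD and at 2.41% and 1.82% in AD/KO, the lower AD value and the higher AD/KO value lying close together. The monocyte gene Chil3 alone gave 45.8% of the sum in AD replicate 2, against 4.59% to 16.9% in the other libraries. Without it, a choice made after seeing the data, the shares were 5.04% and 4.78% in AD and 2.82% and 2.19% in AD/KO, and the groups stood apart. Of 7 border-associated macrophage markers, 6 were lower and 5 in both libraries, beside the same shares of all genes tested. The 7 summed to 133 and 100 CPM in AD and to 69.1 and 59.5 CPM in AD/KO. The part of either cell type in the level of Adgre4 was not tested. Adgre4 contains 2 pseudogenes in RefSeq, Gm18365 and Gm18417, each with 7 reads or fewer in any library.

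Adgre5 (gene ID 26364, chromosome 8, 83723245 to 83741311, minus strand) encodes CD97, a receptor of most leukocytes that binds CD55. It had 470 and 779 reads in AD and 233 and 325 reads in AD/KO, or 34.1, 47.9, 12.1 and 17.6 CPM. Each AD/KO library was lower than either AD library. The AD mean was 41.0 ± 9.74 CPM (SD, n = 2), and that of AD/KO was 14.9 ± 3.88 CPM (SD, n = 2), 2.75-fold lower. The log2 fold change was −1.46 (SE 0.36), and with scaling to the microglia list it was −0.41. On that scale the percentages were 3.12%, 6.12%, 1.14% and 5.83%, and the groups overlapped. Replicate 2 was the higher library in each group in CPM and relative to microglia, as it was for Adgre4. The neutrophil and monocyte sums were likewise highest in AD replicate 2, and their part was not tested. Ddx39a on the other strand shares 23.8% of the exonic length of Adgre5 in GENCODE M21, and stood at 26.1, 23.7, 20.7 and 19.8 CPM. Whether the counting used strand is not given in the sources used here, so that reads of the shared part cannot be told apart.

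**Figure D5:**
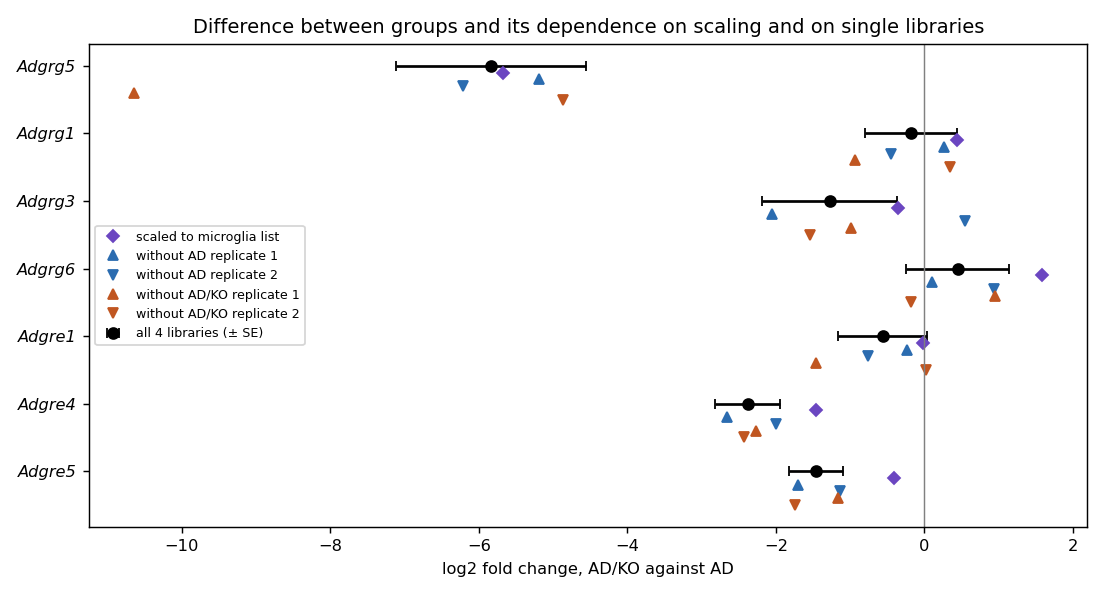
Log2 fold change of each receptor (AD/KO against AD) in the fit of all 4 libraries (black, ± SE), with scaling to the microglia list (purple diamond) and with each library left out (triangles). Adgrg5, Adgre4 and Adgre5 stay below 0 in every setting drawn, while Adgrg1, Adgrg3, Adgrg6 and Adgre1 cross 0 in at least 1; the point at −10.6 is Adgrg5 against the library with 0 reads, where the fit depends on its prior count.

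Leaving out AD replicate 2, the library with Xist reads and the highest neutrophil level, gave log2 fold changes of −6.22 for Adgrg5, −1.995 for Adgre4 and −1.13 for Adgre5. With scaling to the microglia list Adgrg5 had a log2 fold change of −5.67, against −5.84 in the fit as reported. That scaling raised the median of all genes from −0.048 to 0.86. Relative to that median, Adgrg5 lay at −6.53, Adgre4 at −2.32 and Adgre5 at −1.27, against −5.79, −2.33 and −1.41 in the fit as reported, and Adgrg1 lay at −0.42 against −0.13. Subtracting the median takes back much of the scaling, so that these values do not adjust for the microglial level.

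Levels of different genes were compared per kilobase of exon (CPM per kb, exons of GENCODE M21). In AD the order of mean levels was Adgrg1 (96.0), Adgre1 (81.2), Adgre5 (10.9), Adgrg5 (3.98), Adgre4 (3.98), Adgrg3 (0.888) and Adgrg6 (0.112). The ranges of Adgrg1 and Adgre1 overlapped between libraries, as did those of Adgrg5 and Adgre4, while the other neighbours in the order were apart. In AD/KO the order was Adgrg1 (84.7), Adgre1 (54.9), Adgre5 (3.96), Adgre4 (0.762), Adgrg3 (0.367), Adgrg6 (0.153) and Adgrg5 (0.0665), so that Adgrg5 went from the fourth place to the last. There the ranges of Adgrg1 and Adgre1, and of Adgrg6 and Adgrg5, overlapped, at 48.5 to 121 against 28.4 to 81.4 and at 0.0981 to 0.209 against 0 to 0.133 CPM per kb.

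The genes most like Adgrg5 and Adgre4 across the 4 libraries were sought by the root mean square difference in centred log2 CPM, among 13768 other genes with a mean of at least 5 CPM. For Adgrg5 they were Cst7, a cystatin, at 0.76 on the log2 scale, the long non-coding gene Gm27008 at 0.97 and Itgax, which encodes CD11c, at 1.28. Cst7 stood at 69.2, 91.8, 3.39 and 1.79 CPM, and like Adgrg5 was lower in AD/KO replicate 2 than in AD/KO replicate 1. Within AD their order was opposite, Cst7 being higher in replicate 2 and Adgrg5 in replicate 1. For Adgre4 they were Cmah, an enzyme of sialic acid synthesis, at 0.14, Arhgap15, a Rac regulator of leukocytes, at 0.15 and Aspm, a spindle gene of dividing cells, at 0.16. Arhgap15 stood at 16.4, 32.1, 4.33 and 5.16 CPM, like Adgre4 highest in AD replicate 2. Levels were centred but not scaled, and few genes fell as far as Adgrg5. Its larger differences are therefore not compared with those of Adgre4, and 4 libraries leave many genes with a like pattern.

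Of the G-group genes outside the 7, Adgrg2 had 5, 13, 3 and 17 reads and did not separate the groups, Adgrg7 had 1, 3, 0 and 0 reads, at or under the floor of 3, and Adgrg4 had 0 reads in all 4 libraries. The rest of the family lay mostly the other way from Adgrg5, Adgre4 and Adgre5. Of 23 other adhesion GPCRs, 20 were tested, 18 of them higher and 2 lower in AD/KO by fitted fold change, and 0 passed the threshold (quasi-likelihood F-test of edgeR, Benjamini-Hochberg adjusted, smallest adjusted p = 0.680). At an unadjusted p under 0.05 there were 2, Adgra1 and Adgrb1. DESeq2 called 0 (smallest adjusted p = 0.0747) and gave no adjusted p for 2 of the 20. Their median log2 fold change was 0.99, against −0.048 over all genes tested, of which 52.8% were lower in AD/KO by fitted fold change. Both AD/KO libraries lay above both AD libraries in 5 of the 20, against 20.3% of all genes tested.

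The 13 with a mean of at least 5 CPM were the brain receptors Adgra1, Adgrb1, Adgrb2 and Adgrb3, the cadherin-like Celsr1, Celsr2 and Celsr3, the latrophilins Adgrl1, Adgrl2 and Adgrl3, and Adgra2, Adgra3 and Adgrf5. Adgrb1 (BAI1), an engulfment receptor of astrocytes and neurons, stood at 83.8, 243, 382 and 1083 CPM, with a log2 fold change of 2.17 (SE 0.80). Adgrl1, a receptor of synapses, stood at 112, 291, 248 and 711 CPM (1.25, SE 0.74) and Adgra3 at 24.6, 17.1, 23.6 and 26.1 CPM (0.25, SE 0.33). The levels of Adgrb1 ran in the order of the astrocyte sum given above, in which all 7 markers were higher in AD/KO, 6 of them in both libraries, and none was at 0. All 7 neuron markers were higher too, 0 of them in both libraries, an arrangement found in 20.3% of all genes tested. The part of these cells in the family's median was not tested. That median was 2.22 with scaling to the microglia list. With AD replicate 2 left out it was 1.996 and with AD/KO replicate 1 left out 1.74, whereas it was 0.50 when AD replicate 1 and 0.31 when AD/KO replicate 2 was left out.

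Among 14 ligands and partners of these receptors, 8 were lower and 6 higher in AD/KO, with a median log2 fold change of −0.19, and 0 passed the threshold in the edgeR fit, with 2 at an unadjusted p under 0.05. DESeq2 called 1, Col4a2. Cd81, a tetraspanin that associates with GPR56, had the highest level (504, 472, 593 and 316 CPM). Cd9, a tetraspanin of the same kind, stood at 245, 258, 185 and 60.9 CPM. Its fitted log2 fold change of −1.03 (SE 0.59) was the lowest among the 12 with a mean of at least 5 CPM. Col4a2, a chain of the type IV collagen that binds GPR126, had the highest, with 18.7, 55.1, 106 and 308 CPM and 2.49 (SE 0.78). Its adjusted p was 0.680 with edgeR and 0.0445 with DESeq2, and edgeR gave 0.0333 without AD replicate 2, in a range over all alternatives from 0.00217 to 0.99997. Each AD/KO library was above either AD library. Outside the naming rule, and chosen after their values were seen, are Cd55, the ligand of CD97, at 3.77, 8.61, 2.66 and 2.93 CPM (−1.15, SE 0.59), and Tgm2, a transglutaminase that binds GPR56, at 101, 63.6, 67.2 and 28.9 CPM (−0.78, SE 0.51). Cd55 was thus lower in both AD/KO libraries, as its receptor was, and the groups overlapped in Tgm2.

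Signalling genes downstream of the receptors were tested in the same edgeR fit, and 0 of them passed. DESeq2 called 0 of them as well. With the replicate number as a term in the edgeR fit, 4333 of 21439 genes passed. Of the signalling genes named below, Gnaz, Adcy1 and Adcy2 then passed and Gnas, Gnai3 and Adcy7 did not. At an unadjusted p under 0.05 there were 0 G protein alpha subunits and 1 adenylyl cyclase. Of 13 G protein alpha subunits, 8 were lower and 5 higher, with a median of −0.010. Gnas, the stimulatory subunit, had the highest level (388, 460, 350 and 492 CPM). Among the 12 with a mean of at least 5 CPM, Gnai3 had the lowest fold change (log2, −0.46, SE 0.28). Gnaz, an inhibitory subunit of neurons, had the highest (1.71, SE 0.74). Gna14, under that mean, lay lower than Gnai3, at −1.02 (SE 0.58). Of 9 adenylyl cyclases, which make cyclic AMP, 7 were higher and 2 lower, with a median of 0.66. Adcy1 and Adcy2, cyclases of brain tissue, were at 119, 421, 280 and 859 CPM and at 9.15, 25.7, 38.6 and 86.2 CPM, while Adcy7, the cyclase of myeloid cells, was at 367, 231, 273 and 98.4 CPM, lowest in the library with the lowest microglial level.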

How the data were processed

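Each library's deposited file holds whole-number counts by gene symbol, as the authors made them and without normalization. The submitters' processing notes name FastQC, HISAT2, SAMtools, featureCounts (Subread), DESeq2 1.30.0 and mm10; per the labels' protocols, ribosomal RNA was depleted and libraries were stranded. Counting settings are not given in the sources used here. Broken lines (11 per file) left 4 genes without a count (Bag6, Huwe1, Mycbp2, Neb). Replicates differed by far more than sampling noise.

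edgeR 4.0.16 (R 4.3.3) was fitted across all genes: filterByExpr (minimum count 10, total 15), TMM scaling, quasi-likelihood F-test without covariates, Benjamini-Hochberg adjustment, threshold 0.05. Standard errors are the log2 fold change divided by the square root of F. CPM were scaled by TMM, and log2 CPM used a prior count of 2. The procedure was tested on simulated data. Alternatives were DESeq2 1.42.0 (test, or size factors), 2 other filters (none, or a mean of 1 CPM), the replicate number as a term, scaling to the microglia list and each library left out. Near-identical transcripts were sought with BLAST 2.17.0. Coordinates are RefSeq GRCm38.p6.

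The genes and lists were chosen with earlier results of these data known. Named were the 7 receptors, other adhesion GPCRs with a mean of at least 5 CPM, in each other pathway list the highest gene and largest rise and fall above that mean, and the 3 nearest patterns. Some genes are not reported here.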

Additional observations from a re-analysis of the deposited data

How the results depend on the processing

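The number of genes called was 0 with DESeq2 size factors, no filter, a filter at a mean of 1 CPM and scaling to the microglia list, 86 with DESeq2 as the test, and from 0 to 524 with a library left out (48 without AD replicate 1, 524 without AD replicate 2, 0 without either AD/KO library). In those fits the lone library of a group was assumed to vary like the other group. The cause was not tested. The median log2 fold change of the other adhesion GPCRs (0.99) was 2.22 with scaling to the microglia list and ran from 0.31 to 1.996 with a library left out, and under the other alternatives it stayed between 0.89 and 1.25. With the replicate number as a block, the calls came to 4333 of 21439 genes tested (2878 with higher and 1455 with lower levels in AD/KO). Among them were 10 of the 20 other adhesion GPCRs tested, all higher. No label ties equal numbers to a litter or day, and libraries of equal number had deviations from their group means that correlated at 0.68.

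Of 70 values of the 7 receptors under alternatives, 62 moved by less than the spread between replicates, an SD from 2 libraries per group. Among these 62, direction turned for Adgrg1 with scaling to the microglia list (0.44) and without AD replicate 1 (0.26) or AD/KO replicate 2 (0.34). For Adgre1 it turned without AD/KO replicate 2 (0.015). The other 8 were Adgrg5 at −10.6 without AD/KO replicate 1, Adgrg3 at 0.54 and Adgre4 at −1.995 without AD replicate 2, Adgrg6 at −0.18 without AD/KO replicate 2, Adgre1 at −1.46 without AD/KO replicate 1, and Adgrg6 at 1.58, Adgre4 at −1.46 and Adgre5 at −0.41 with scaling to the microglia list. Direction changed for Cd81 (0.59), Gnas (1.05) and Gnai3 (0.40) with scaling to the microglia list, for Gnas with DESeq2 size factors (0.044) and with DESeq2 as the test (0.044), and with a library left out for Adgrf5 (−0.60 to 1.66), Cd81 (−0.57 to 0.29) and Gnas (−0.27 to 0.27). Depth limits Adgrg5 in AD/KO, and Adgrg6, where few reads were counted.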
